A study of Mus musculus with 6 samples.

Results

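The transcripts described here are small nucleolar RNAs (snoRNAs) and small Cajal body RNAs in SCs (satellite cells, the stem cells of skeletal muscle). They were chosen by name, as the genes whose symbol begins with *Snora*, *Snord* or *Scarna* and a number, and by level, as those with a mean of at least 1 TPM (read number divided by gene length and scaled to the library total) over the 6 libraries. Of 55416 rows in the deposited table, 122 carried such a name and 17 of these reached the threshold, 13 of 37 *Snora* rows, 3 of 78 *Snord* rows and 1 of 7 *Scarna* rows. The mean TPM thus chose the genes, and their levels are given as a description. Because a gene that is high in only 1 library can pass a threshold on the mean, the 17 include genes that had to differ between libraries.

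snoRNAs are short non-coding RNAs that guide chemical modification of other RNAs. RNAs of the C/D box class (*Snord*) direct 2'-O-methylation and those of the H/ACA box class (*Snora*) direct pseudouridylation, mostly of ribosomal RNA, while Cajal body RNAs (*Scarna*) act on the RNAs of the spliceosome. A few, among them *Snora73a* and *Snora73b* (U17), act in the cleavage of the ribosomal RNA precursor. Most vertebrate snoRNAs are not transcribed on their own but are cut from introns of a host gene, often one for a ribosomal protein or another part of the translation machinery, and each is bound by a set of core proteins that protect its ends.

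RNA was sequenced from 3 WT and 3 *Ltf*-KO libraries of SCs to compare growing cells with and without lactoferrin, a secreted iron-binding glycoprotein. The SCs were sorted from hind leg muscle of adult mice as Sca1-, CD11b-, CD34+ and α7-integrin+ cells, and all were grown for 4 days on Matrigel in a serum-based growth medium with basic fibroblast growth factor. *Ltf*-KO mice carry a systemic deletion of *Ltf* exons made by CRISPR on the C57/BL6N background, so every cell type of the donor lacked the gene, and WT mice were the control. The labels do not say whether the 3 libraries of a genotype came from separate animals or cultures, so p-values measure only the spread between these libraries, which may be technical. The way RNA was selected for the libraries, and whether strand was kept, are not given in the sources used here.

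Each library summed to between 993650 and 994356 TPM. TPM keeps no read number, so the depth behind a value is unknown and no counting interval can be given. All 8 satellite cell and myoblast markers (*Pax7*, *Myf5*, *Myod1*, *Des*, *Itga7*, *Cdh15*, *Vcam1* and *Myog*) were at 36.6 TPM or more in every library, with a sum of 2172 to 2346 TPM in WT and 2184 to 2471 TPM in *Ltf*-KO. Macrophage and leukocyte markers summed to at most 0.31 TPM, endothelial markers to at most 9.13 TPM, fibroblast markers to at most 18.4 TPM and Schwann cell markers to at most 18.8 TPM. Of the smooth muscle and pericyte markers, *Acta2*, which cultured myoblasts also express, made up 409 to 593 TPM, *Cspg4* was at 30.8 to 41.1 TPM and *Rgs5* at 0.46 TPM or less. *Ltf* itself was at 0.12 TPM or less in all 6 libraries and does not tell the genotypes apart. Over the 12956 genes whose mean reached 1 TPM, which are not independent replicates, the Pearson correlation of log2(TPM + 1) was 0.973 to 0.978 between libraries of 1 genotype and 0.972 to 0.977 between genotypes.

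The sequences that carry the account are shown first, 5′ to 3′, as annotated in GENCODE M21 on GRCm38. The submitters' processing notes name GRCm39, so these positions are not those of the build used for the table and the transcripts were matched by Ensembl gene identifier. Capitals mark the ACA that lies 3 bases from the 3′ end of an H/ACA RNA, and in C/D RNAs a TGATGA (box C) within the first 30 bases and a CTGA (box D) within the last 30. The first set holds the genes above 0 in 4 or more libraries whose values are discussed one by one. *Snord22* lies at chr19:8725866-8725991 on the plus strand, *Snora73b* at chr4:132352322-132352526 and *Snora73a* at chr4:132352775-132352979 on the minus strand, *Snora43* at chr2:26637847-26637985 on the minus strand and *Snora23* at chr7:110046364-110046547 on the plus strand.
Snord22: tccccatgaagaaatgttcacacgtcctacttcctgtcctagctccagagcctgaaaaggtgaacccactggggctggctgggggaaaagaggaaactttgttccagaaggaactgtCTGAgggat
Snora73b: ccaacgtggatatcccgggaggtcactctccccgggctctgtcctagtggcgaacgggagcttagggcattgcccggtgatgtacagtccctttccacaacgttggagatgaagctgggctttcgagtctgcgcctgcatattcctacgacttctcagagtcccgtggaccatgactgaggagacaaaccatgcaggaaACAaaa
Snora73a: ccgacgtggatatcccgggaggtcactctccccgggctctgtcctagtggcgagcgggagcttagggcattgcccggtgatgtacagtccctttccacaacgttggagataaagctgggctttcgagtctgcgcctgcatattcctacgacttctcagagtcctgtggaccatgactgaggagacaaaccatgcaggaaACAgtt
Snora43: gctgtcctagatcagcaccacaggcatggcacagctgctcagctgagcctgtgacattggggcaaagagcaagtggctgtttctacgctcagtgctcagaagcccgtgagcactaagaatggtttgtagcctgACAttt
Snora23: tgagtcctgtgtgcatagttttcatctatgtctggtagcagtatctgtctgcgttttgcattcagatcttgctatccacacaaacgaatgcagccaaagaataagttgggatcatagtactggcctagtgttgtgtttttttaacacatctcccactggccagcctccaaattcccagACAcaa

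The second set holds genes seen in WT libraries only or in 1 library only. *Snora28* lies at chr12:111540941-111541067, *Snora44* at chr4:132309941-132310069 and *Snora61* at chr4:132310240-132310369, all on the plus strand, and *Snord15a* at chr7:99482785-99482932 on the minus strand. *Snora44* and *Snora61* come from the same host gene, *Snhg12*, and *Snord15a* shows both boxes of a C/D RNA.
Snora28: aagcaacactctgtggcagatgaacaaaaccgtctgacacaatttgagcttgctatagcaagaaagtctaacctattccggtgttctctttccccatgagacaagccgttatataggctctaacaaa
Snora44: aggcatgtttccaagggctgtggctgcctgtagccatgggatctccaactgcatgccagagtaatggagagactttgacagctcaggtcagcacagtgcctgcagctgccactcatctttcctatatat
Snora61: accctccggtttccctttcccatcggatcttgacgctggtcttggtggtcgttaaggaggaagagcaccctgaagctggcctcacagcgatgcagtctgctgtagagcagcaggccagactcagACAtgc
Snord15a: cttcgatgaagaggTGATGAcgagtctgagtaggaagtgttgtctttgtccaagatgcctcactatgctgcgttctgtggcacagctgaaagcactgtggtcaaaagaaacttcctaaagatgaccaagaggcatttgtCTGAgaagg

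The annotated ends carried the boxes of their class in most of the 17 genes. The ACA stood 3 bases from the end in 11 of 13 *Snora* genes, the exceptions being *Snora28* and *Snora44*, against 19 of the 24 *Snora* rows that are not among the 17 and 1.77% of 18943 other annotated transcripts of 64 to 414 bases. TGATGA and CTGA were both present at the ends of *Snord15a*, *Snord17* and *Scarna10*, and *Snord22* held CTGA alone. Both were found in 48 of 75 *Snord* rows and in 0.216% of the other transcripts. Only the given strand was searched, and a missing match says only that these letters are not in the searched window. *Snora73a* and *Snora73b* were identical at 198 of 205 aligned bases (96.6%), while no other pair among the genes with a sequence exceeded 56.2%.

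Most named snoRNA genes were listed at exactly 0. Of the 122 rows, 102 were at 0 in all 6 libraries, 3 were above 0 with a mean under 1 TPM and 17 were above it. Among those listed at 0 throughout were snoRNAs that every growing cell uses, *Snord3a* (U3) and *Snord118* (U8), which act in processing of the ribosomal RNA precursor, *Snord14a* (U14) and *Snord13* (U13). A 0 in this table is therefore not read as absence of the RNA, values are given library by library, and no fold is given against a genotype listed at 0.

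Length separated the rows that were ever above 0 from those that were not. Of the 118 named rows found in GENCODE M21, 0 of the 68 rows of up to 120 bases were above 0 in any library, against 19 of 50 longer rows (38%). Other annotated snoRNAs and Cajal body RNAs showed the same limit, with 0 of 249 rows of up to 120 bases and 26 of 733 longer rows above 0. Among small nuclear, micro, miscellaneous and ribosomal RNA rows the numbers were 3 of 1651 and 18 of 306. C/D RNAs are the shorter class, with a median of 79 bases in *Snord* rows against 132 bases in *Snora* rows. Length alone did not separate every row, since *Snord3a* at 213 bases and *Snord118* at 135 bases were also listed at 0. The lowest value above 0 had a median of 36.4 TPM in the 11 genes of 121 to 140 bases and 3.51 TPM in the 4 genes of 171 to 240 bases. Length is not the only difference, as several of the 11 were seen in 1 library, so their lowest value is their only one. The threshold removed none of this length, as 11 of 34 named rows of 121 to 140 bases were above 0 and all 11 passed it. For the 28 snoRNA and Cajal body RNA rows of that length above 0, these 11 included, the same median was 37.0 TPM. *Snord22* and *Snora43*, short genes seen in 5 and 6 libraries, had lowest values of 2.44 and 6.96 TPM. TPM divides by length, so 1 read weighs more in a short RNA. What part read selection or fragment length had in these limits was not tested.

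**Figure D1:**
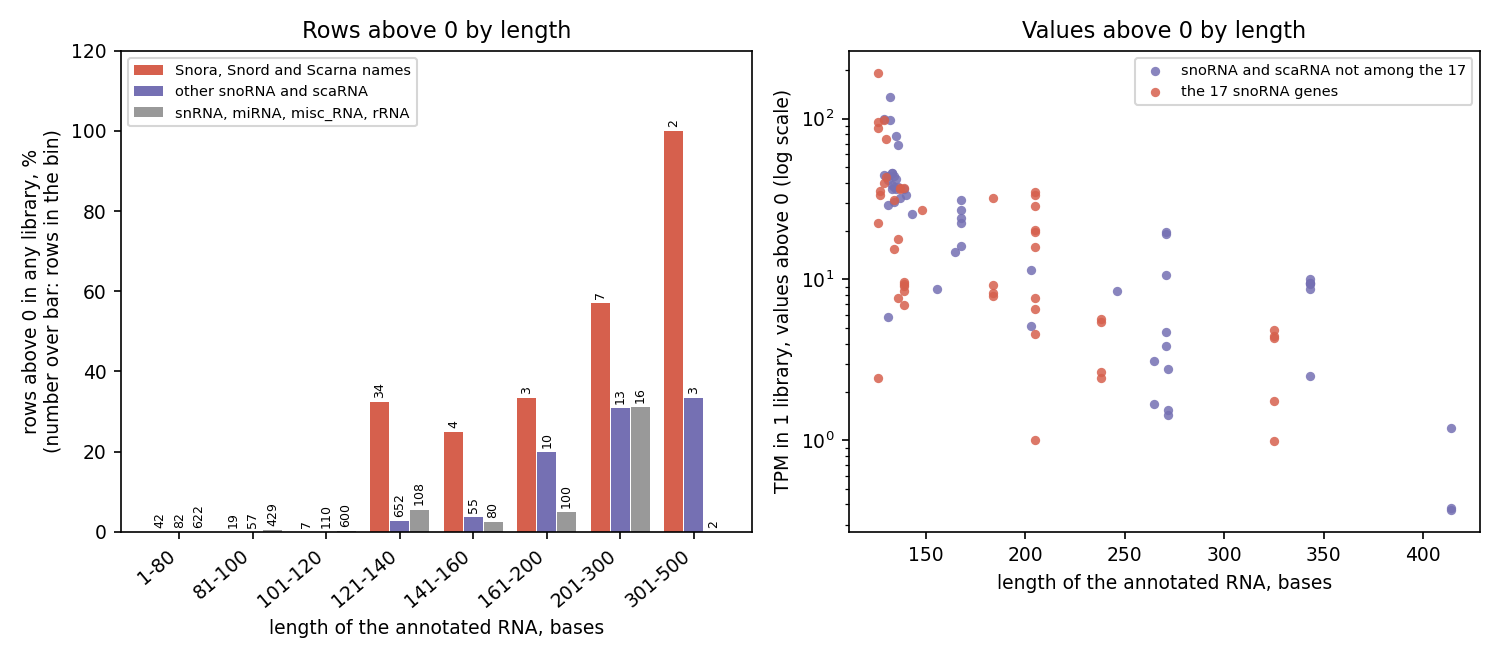
Left, share of annotated short RNA rows above 0 TPM in any library by length in bases, for rows with a *Snora*, *Snord* or *Scarna* name, other snoRNA and Cajal body RNA rows, and other small RNA classes, with the number of rows over each bar; no named row of up to 120 bases was above 0. Right, every value above 0 of snoRNA and Cajal body RNA rows against length, 1 point for each gene and library, on a log axis, where values under 2 TPM come from RNAs of over 200 bases.

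A gene passed the threshold on as little as 1 library. Of the 17 genes, 7 were above 0 in 1 library only, 3 in 2 libraries, 3 in 4, 2 in 5 and 2 in all 6. In all, 15 of 17 genes (88.2%) were listed at 0 in at least 1 library, against 287 of the 12939 other genes tested (2.22%). Of the 51 values in each genotype, 25 were above 0 in WT and 22 in *Ltf*-KO. The highest library held more than 50% of the gene's total in 12 of the 17 genes.

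*Snord22*, a C/D RNA from the non-coding host *Snhg1* that is known from frog oocytes to be needed for maturation of 18S ribosomal RNA, had the highest mean. It was at 193.02, 0 and 95.37 TPM in WT libraries 1 to 3 and at 2.44, 87.91 and 22.49 TPM in *Ltf*-KO libraries 1 to 3. The highest and the lowest library were both WT, and the *Ltf*-KO values lay between them. On the log2(TPM + 1) scale the difference of *Ltf*-KO from WT was -0.46 with a standard error of 2.15.

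*Snora73b* and *Snora73a*, the U17 pair, lie within the overlapping hosts *Snhg3* and *Rcc1*, in introns but for 1 of 5 *Snhg3* transcripts, which has an exon over 159 of the 205 bases of *Snora73a*. *Snora73b* was at 1, 33.46 and 20.29 TPM in WT and at 15.86, 35.14 and 19.71 TPM in *Ltf*-KO, and 5 of its 6 values stood between 15.86 and 35.14. *Snora73a* was at 0, 4.57 and 7.67 TPM in WT and at 6.52, 0 and 28.54 TPM in *Ltf*-KO. The genotypes overlapped for both genes, with differences of 1.03 (SE 1.03) for *Snora73b* and 0.73 (SE 1.34) for *Snora73a* on the log2(TPM + 1) scale. Reads from 2 RNAs with so few differing bases may be split between them by the counting, so the pair was also summed, giving 1, 38.03 and 27.96 TPM in WT and 22.38, 35.14 and 48.25 TPM in *Ltf*-KO. WT library 1 stood apart from the other 5 in this sum. The non-coding gene *Gm17300*, on the opposite strand, has exons over all 205 bases of *Snora73b* and 175 bases of *Snora73a*, and it was at 10.06 to 11.3 TPM in all 6 libraries. Whether reads were shared with it was not tested, as the use of strand is not stated.

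*Snora43* and *Snora23*, both H/ACA RNAs, had close values in WT and 1 high *Ltf*-KO library. *Snora43* was at 8.53, 9.11 and 9.38 TPM in WT and at 36.89, 9.7 and 6.96 TPM in *Ltf*-KO. It was the member with the smallest spread in WT, a coefficient of variation (CV) of 4.82%, and without *Ltf*-KO library 1 its difference turned from 0.56 (SE 0.54) to -0.12. A second row of the same name, over 127 of its bases, was listed at 0 in every library. *Snora23*, from an intron of *Ipo7*, a nuclear import receptor, was at 8.3, 9.2 and 7.88 TPM in WT and at 32.25, 0 and 0 TPM in *Ltf*-KO. The highest value of both genes came from *Ltf*-KO library 1.

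The other genes seen in both genotypes were low or sporadic. *Snora64*, from *Rps2*, was at 31 TPM in WT library 2 and 15.53 TPM in *Ltf*-KO library 3 and at 0 elsewhere. *Snora5c*, from *Tbrg4*, was at 17.87 TPM in WT library 2 and 7.65 TPM in *Ltf*-KO library 1. Both are thus known from 1 library of each genotype. *Snord17*, a long C/D RNA from the sorting nexin gene *Snx5*, was at 2.45, 5.42 and 0 TPM in WT and at 0, 5.72 and 2.66 TPM in *Ltf*-KO. *Scarna10*, the Cajal body RNA of the set, from the condensin gene *Ncapd2*, was at 0.99, 4.86 and 0 TPM in WT and at 1.77, 4.31 and 4.45 TPM in *Ltf*-KO. The values of *Snord17* overlapped almost fully, and those of *Scarna10* overlapped with a difference of 0.93 (SE 0.64). The sense intronic gene *Gm28967* shares 281 of the 325 bases of *Scarna10* and was at 3.69 TPM in WT library 3, where *Scarna10* was listed at 0, and at 0.15 TPM or less elsewhere.

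The remaining 8 genes were above 0 in 1 genotype only. *Snora28*, from the translation initiation factor gene *Eif5*, was at 33.56, 0 and 35.45 TPM in WT and at 0 in the 3 *Ltf*-KO libraries. The other 7 were seen in a single library, at 26.98 to 97.4 TPM. These were *Snora44* at 97.4 TPM and *Snora33* at 40.02 TPM in WT library 2, *Snora61* at 74.56 TPM in WT library 3 and *Snora21* at 37.26 TPM in WT library 1. In *Ltf*-KO, *Snora31* was at 43.1 TPM in library 1, and *Snora52* at 36.42 TPM and *Snord15a* at 26.98 TPM in library 2. The 7 RNAs measured 129 to 148 bases. Although *Snora44* and *Snora61* are cut from the same host, they appeared in different WT libraries.

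**Figure D2:**
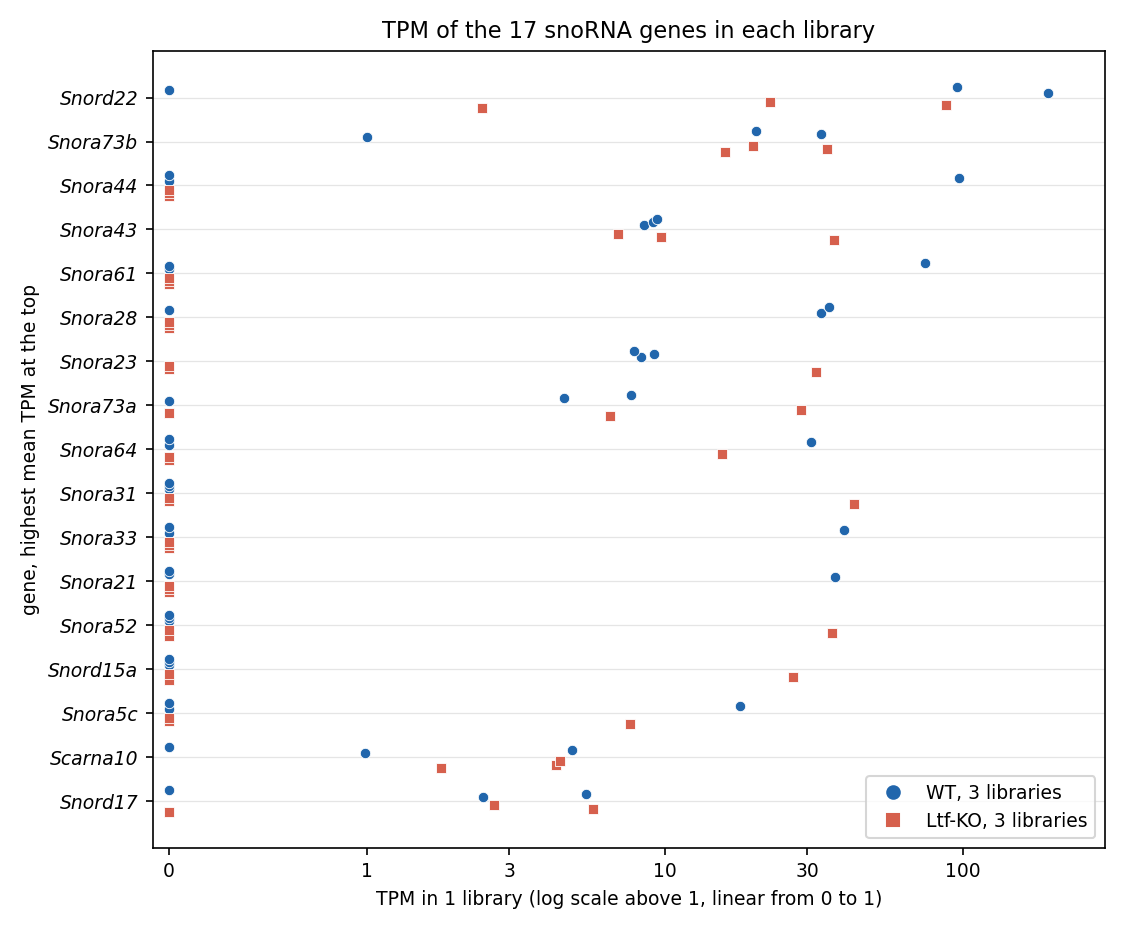
TPM of each of the 17 genes in the 3 WT libraries (circles) and the 3 *Ltf*-KO libraries (squares), 1 point for each library, on an axis that is linear from 0 to 1 and logarithmic above; points at 0 lie on one another. Of the 17 genes, 15 have at least 1 library at 0, and the genotypes overlap for all 17.

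The threshold of 1 TPM fell among genes of this kind. Just inside it were *Snord17* with a mean of 2.71 TPM, *Scarna10* with 2.73 TPM and *Snora5c* with 4.25 TPM. Just outside were *Scarna6* at 0.8 TPM, seen at 3.11 TPM in WT library 1 and 1.69 TPM in *Ltf*-KO library 3, *Scarna13* at 0.467 TPM, seen at 1.34 and 1.46 TPM in those same libraries, and *Scarna2* at 0.325 TPM, with 1.2, 0.38 and 0.37 TPM in WT libraries 2 and 3 and *Ltf*-KO library 1. These 3 Cajal body RNAs were seen in both genotypes.

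The spread between libraries was wide at every level. The median CV of the 17 genes was 118% within WT and 151% within *Ltf*-KO, over those above 0 in the genotype, against 7.02% and 7.38% for the 12939 other genes. A gene above 0 in 1 of 3 libraries has a CV of 173% whatever its value, so these figures describe detection as much as level. At matched mean TPM the difference held: each gene's CV over the 6 libraries lay above that of 92.1% (*Scarna10*) to 99.8% (*Snord22*) of the other genes in its range of mean TPM. Other short genes also had wide spreads at low levels, and the difference from the 17 was not tested. The 147 other single-exon genes under 300 bases had median CVs of 104% and 117%, and 115 of them (78.2%) were listed at 0 in at least 1 library. Over the 6 libraries their median CV was 158%, beside 167% for the 17 genes. At 1 to 3 TPM it was 190%, beside 84.0% for *Scarna10* and *Snord17*. It was 171% beside 245% at 3 to 10 TPM and 142% beside 155% at 10 to 30 TPM. At 30 to 100 TPM it was 35.2%, where *Snord22* was at 111%, and at 100 TPM or more it was 22.1%. The residual SD of the 17 genes in the model was 4.70 to 40.1 times the value that the trend on mean expression predicted, with a median of 8.37, against a median of 1.05 in other genes. All 17 exceeded 3 times, as did 6.38% of the others.

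**Figure D3:**
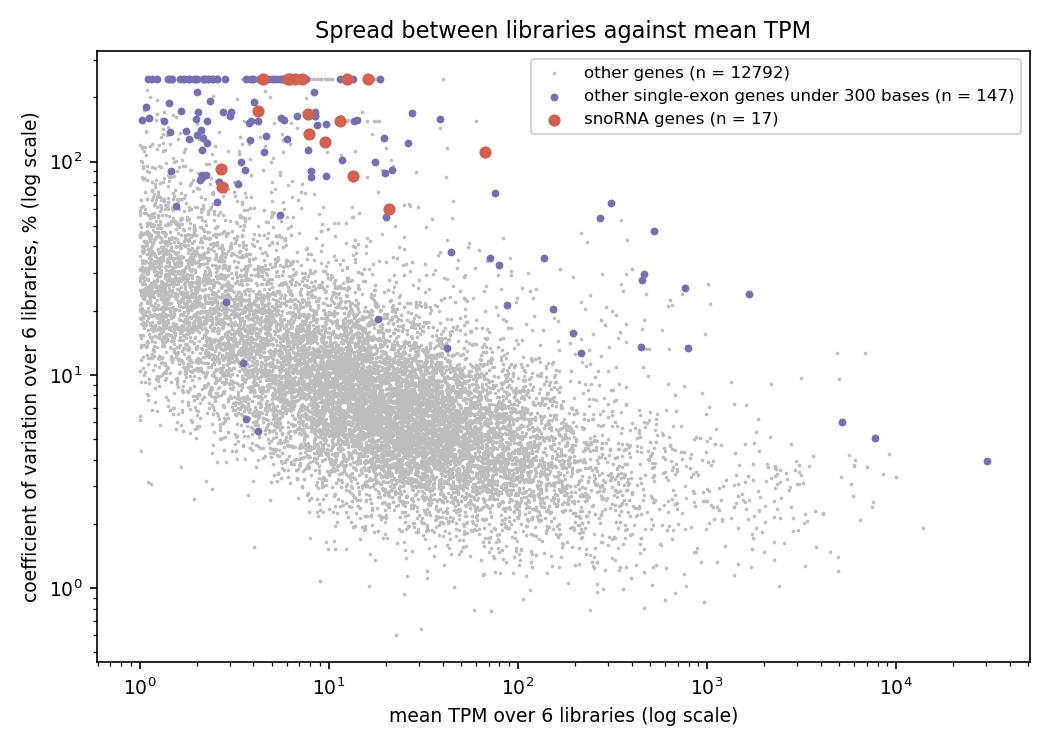
CV over the 6 libraries in percent against mean TPM, both on log axes, for the 17 snoRNA genes, 147 other single-exon genes under 300 bases and 12792 further genes that reached the same mean, 1 point for each gene. The snoRNA genes lie in the upper part of the cloud, from 59.9% for *Snora73b* to 245% for genes seen in 1 library, as do many other short genes at low levels.

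No change of these genes with genotype passed the adjusted threshold. limma was fitted to log2(TPM + 1) over all 12956 genes, where 490 genes (3.78%) had an unadjusted p under 0.05 and 0 genes (0%) an adjusted p under 0.05, with a smallest adjusted p of 0.181. Of the 490, 260 were higher and 230 lower in *Ltf*-KO, while quantile normalization gave 203 higher and 305 lower. Among the 17 genes 1 had an unadjusted p under 0.05, *Snora28* (limma adjusted p = 0.999), and 0 had an adjusted p under 0.05. *Snora28* was listed at 0 in every *Ltf*-KO library and passed the threshold on the mean through WT libraries alone. The libraries of the genotypes did not overlap in 0 of 17 genes, against 1096 of all 12956 (8.46%). A gene listed at 0 in a library of each genotype, as most of the 17 were, must overlap. This count was thus largely fixed by the zeros. Over the 9 genes above 0 in both genotypes the median difference was 0.05, beside 0.011 over all genes tested. It was -0.20 without WT library 1 and 0.34 without WT library 3. Without WT library 2, *Snora5c* and *Snora64* were at 0 in the WT libraries left, so no median is given. Over all 17, of which 8 were listed at 0 in a whole genotype so that their fitted differences depend on the pseudocount, 9 were lower and 8 higher by sign with a median of -0.32, which turned to 0.064 with a pseudocount of 0.1 and to 0.65 without WT library 2. The 95% intervals of those 9 were wide, from -0.74 to 1.87 for *Snora43*, the narrowest, and from -5.62 to 4.70 for *Snord22*, and changes of these sizes are not excluded.

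Single libraries decided what the fit called. Without WT library 2, in which it was listed at 0, *Snora28* had an adjusted p of 0.000174 and *Scarna10* an unadjusted p under 0.05, and without WT library 1 or 3 no member had an unadjusted p under 0.05. Without *Ltf*-KO library 1, *Snora23* had an adjusted p of 0.00349, since the 2 libraries left were both at 0. Both adjusted calls set WT libraries above 0 against *Ltf*-KO libraries all at 0, so neither measures an effect of genotype. The unadjusted call of *Snora28* was also lost without any 1 of the *Ltf*-KO libraries, without the variance trend, with robust moderation and with every gene above 0 tested. What part sporadic detection had in these calls was not tested.

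Summed over the 17 genes, the WT libraries stood above the *Ltf*-KO libraries. This separation was lost when *Snord22*, *Snora44* or *Snora61* was left out. The sum was 285.11, 252.91 and 250.6 TPM in WT and 146.48, 206.18 and 100.34 TPM in *Ltf*-KO, so that the genotypes did not overlap. *Snord22* gave 67.7% of the sum in WT library 1 and 0 in WT library 2, where *Snora44* alone gave 38.5%. Genes seen in a single library counted too: *Snora44* added 97.4 TPM in WT library 2 only and *Snora61* 74.56 TPM in WT library 3 only. Without *Snora44* the sum of WT library 2 falls below the 206.18 TPM of *Ltf*-KO library 2, and without *Snora61* that of WT library 3 does. Both genes passed the threshold through those WT libraries alone, so the lack of overlap is no measure of an effect of genotype. Without *Snord22* the sums were 92.09, 252.91 and 155.23 TPM in WT and 144.04, 118.27 and 77.85 TPM in *Ltf*-KO, with means of 167 and 113 TPM, and the genotypes overlapped. By class, the *Snora* genes summed to 88.65, 242.63 and 155.23 TPM in WT and to 142.27, 81.26 and 70.74 TPM in *Ltf*-KO, and the *Snord* genes to 195.47, 5.42 and 95.37 TPM and to 2.44, 120.61 and 25.15 TPM. Both classes overlapped between genotypes. In no library did the sum exceed 0.0287% of the total, and as it is a sum over chosen genes it was not tested.

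The host genes, which the choice of genes did not use, were abundant and steady. For 16 of the 17 genes an annotated host on the same strand contained the whole RNA (*Snora43* had none in GENCODE M21), and 11 of the 16 highest-level hosts were protein-coding. Their means ran from 69.4 TPM for *Snhg12* to 4922 TPM for *Rps2*, with 13 of 16 at 100 TPM or more. Hosts of this level were not particular to the genes seen, as 24 named rows over 120 bases that were listed at 0 throughout had hosts with a median of 140 TPM, against 171 TPM for the 16. *Snora73b*, *Snora23*, *Snora31*, *Snora21*, *Snord15a* and *Snord17* were intronic in every annotated transcript of their hosts. An exon covered the whole RNA in 3 of 18 *Snhg1* transcripts for *Snord22*, in 2 of 10 *Snhg12* transcripts for *Snora44* and 4 of 10 for *Snora61*, and in 2 of 17 *Eif5* transcripts for *Snora28*. The same held for 1 of 8 *Rps2* transcripts with *Snora64*, 1 of 9 *Rps12* transcripts with *Snora33* and 1 of 6 *Rplp2* transcripts with *Snora52*, hosts at 1127 to 4922 TPM, and for *Snora5c* and *Scarna10* 1 host transcript had an exon over a part of the RNA. Reads of such host transcripts were not told apart from those of the snoRNA here. The hosts differed by at most 1.33-fold between their highest and lowest library. *Tpt1*, host of *Snora31*, was at 4483 to 4493 TPM in WT and 4326 to 4497 TPM in *Ltf*-KO, while its snoRNA was seen once.

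Among the 15 hosts 0 had an unadjusted limma p under 0.05, with a median difference of -0.014 and 6 higher and 9 lower in *Ltf*-KO. The ribosomal protein genes *Rplp2* and *Rps3* were lower in all 3 *Ltf*-KO libraries than in any WT library, with differences of -0.06 (SE 0.02, limma adjusted p = 0.999) and -0.08 (SE 0.03, limma adjusted p = 0.999), which is 2 of 15 against 8.46% of all genes. Their snoRNAs, *Snora52* and *Snord15a*, were both seen only in *Ltf*-KO library 2. *Snhg12*, host of *Snora44* and *Snora61*, was at 81.1, 74.48 and 65.78 TPM in WT and at 72.8, 61 and 61.28 TPM in *Ltf*-KO, a difference of -0.18 (SE 0.10). *Snhg1* was at 188.81, 190.35 and 204.4 TPM in WT and at 181.55, 211.7 and 212.18 TPM in *Ltf*-KO, within which *Snord22* ran from 0 to 193.02 TPM. *Eif5* was at 148.78, 148.48 and 159.58 TPM in WT and at 156.04, 154.63 and 148.47 TPM in *Ltf*-KO and overlapped fully, although *Snora28* was at 0 in all *Ltf*-KO libraries. With *Ltf*-KO library 1 left out, or after median-of-ratios scaling, 2 of the 15 hosts had an unadjusted p under 0.05. The same settings gave 480 and 502 of all 12956 genes.

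**Figure D4:**
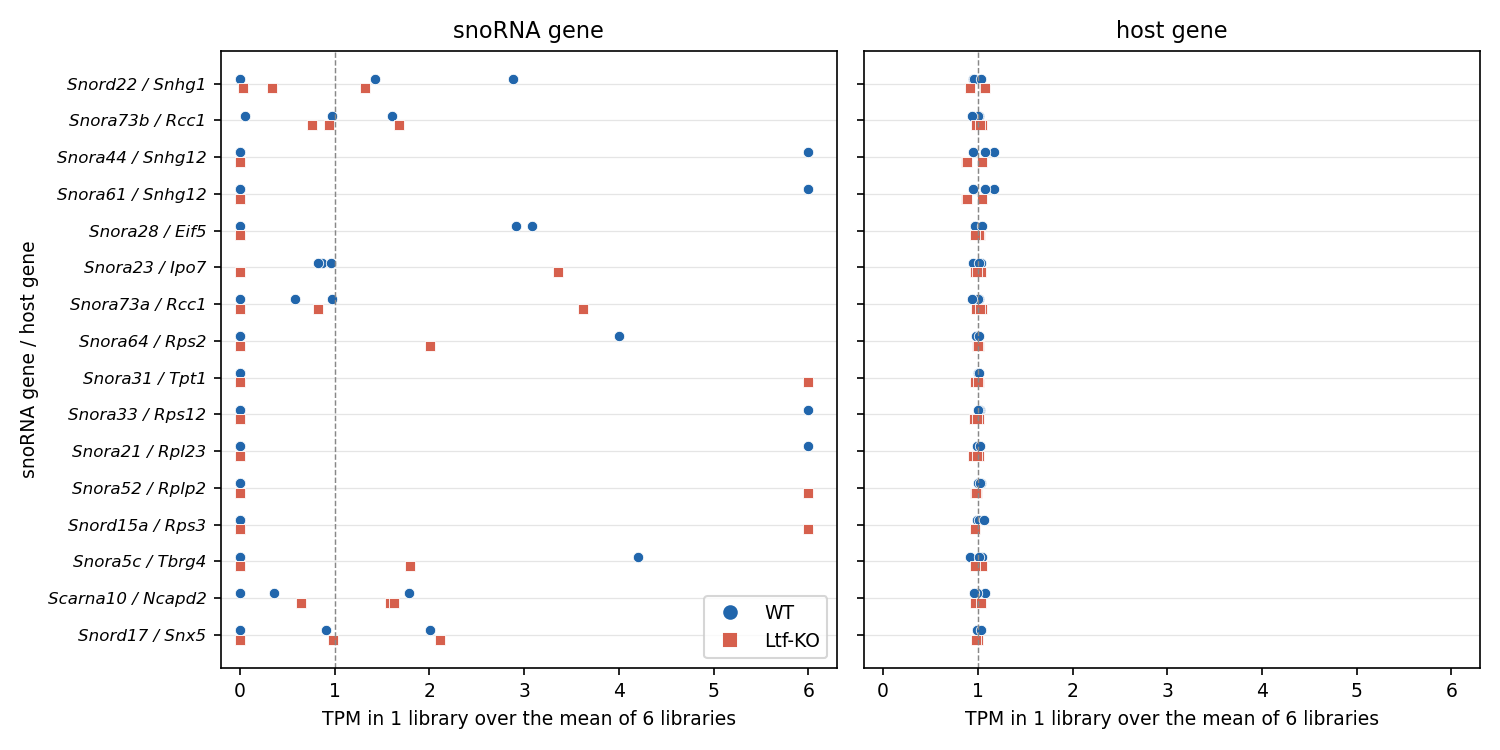
TPM in each library divided by the gene's mean over the 6 libraries, for 16 snoRNA genes (left) and for 1 host of each (right), with WT as circles and *Ltf*-KO as squares; the dashed line marks the mean, and points at 0 lie on one another. The snoRNA values spread from 0 to 6 times the mean while those of the hosts stay close to 1.

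The protein genes of the snoRNA pathway were above 0 in every library and differed little between genotypes. Of 30 tested genes, 0 were higher and 2 lower at an unadjusted limma p under 0.05, beside 260 higher and 230 lower of all 12956 genes (3.78% in both directions), and 0 passed the adjusted threshold. By sign 9 were higher and 21 lower, beside 7220 higher and 5736 lower of all genes, with a median difference of -0.021 beside 0.011. The C/D core genes *Fbl*, the methyltransferase fibrillarin, *Nop56*, *Nop58* and *Snu13* differed by at most 0.03 in size. *Fbl* was at 348.99, 343.05 and 369.81 TPM in WT and at 342.86, 376.69 and 345.96 TPM in *Ltf*-KO. The H/ACA core genes *Dkc1*, the pseudouridine synthase dyskerin, *Nop10*, *Nhp2* and *Gar1* were all lower by sign, with differences of -0.01 to -0.06, and none had libraries that did not overlap. *Dkc1* was at 118.62, 130.93 and 134.72 TPM in WT and at 123.39, 131.36 and 125.76 TPM in *Ltf*-KO.

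Both genes with an unadjusted p under 0.05 belonged to later steps. *Smn1*, whose product assembles small nuclear ribonucleoproteins and enters Cajal bodies, was at 73.73, 72.15 and 74.17 TPM in WT and at 67.69, 64.98 and 69.51 TPM in *Ltf*-KO (difference -0.12, SE 0.04, limma adjusted p = 0.999). *Xrn2*, a nuclear exonuclease that trims RNA from its 5′ end, was at 89.42, 89.09 and 89.16 TPM in WT and at 75.18, 72.84 and 87.64 TPM in *Ltf*-KO (difference -0.19, SE 0.07, limma adjusted p = 0.999). In both, every *Ltf*-KO library was below every WT library, which holds for 2 of 30 genes against 8.46% of all genes. The group with *Smn1*, of Cajal body, cap and transport factors, was lower by sign in 6 of 6 genes with a median of -0.09, the assembly factors had 5 higher and 4 lower with a median of 0.0091, and the intron release and trimming enzymes had 2 higher and 5 lower with a median of -0.014. The number of the 30 at an unadjusted p under 0.05 fell to 0 without WT library 3 or without *Ltf*-KO library 2, and to 1 without WT library 1 or 2, with quantile normalization and without the variance trend.

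**Figure D5:**
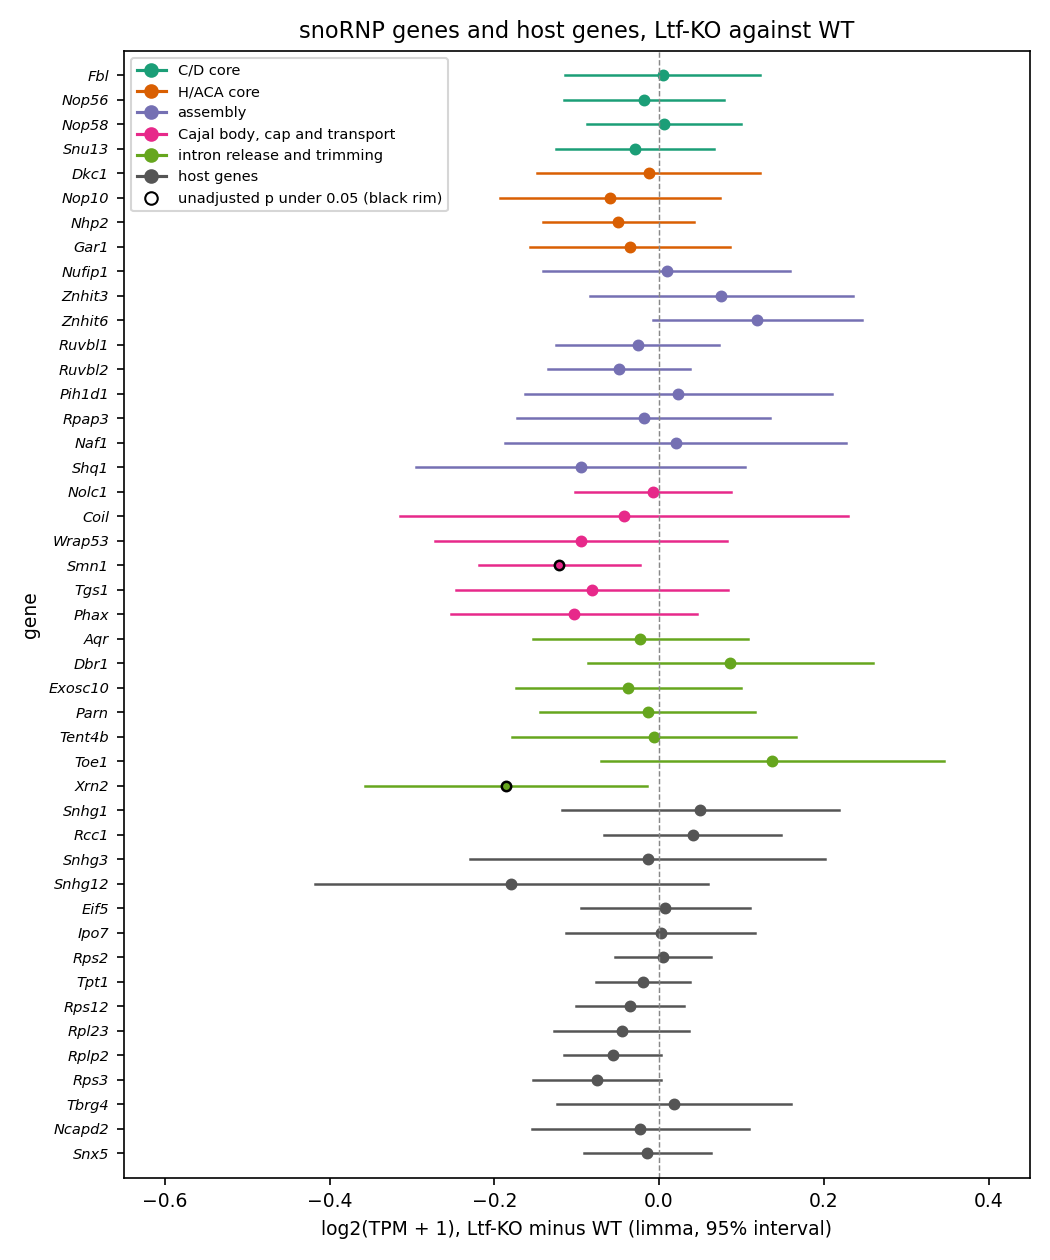
Difference of *Ltf*-KO from WT on the log2(TPM + 1) scale for 30 genes of snoRNA protein complexes, assembly, transport and processing, coloured by group, and 15 host genes, with points at the limma estimate and lines for its 95% interval; a black rim marks an unadjusted p under 0.05. The intervals of all but *Smn1* and *Xrn2* include 0.

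Near-identical copies of some of these RNAs lie elsewhere in the genome. For 5 of the 17 genes an annotated transcript at another locus was at least 90% identical over at least 80% of the length, 7 transcripts in all, and the 6 of these with a row in the table were listed at 0. The most alike were *Gm23346* with *Snora5c* (98.5%) and *Gm23795* with *Snora21* (97.8%). How reads that fit both copies were counted is not given in the sources used here, so the levels of these 5 genes and of the *Snora73* pair are uncertain in this respect.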

How the data were processed

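RNA sequencing of 3 WT and 3 *Ltf*-KO libraries of SCs grown for 4 days was analysed from TPM values. The authors deposited the TPM of 55416 genes with 2 decimals, extracted and normalized by the sequencing provider, and the labels name the GRCm39 build. The aligner, the counting tool and the annotation release are not given in the sources used here. TPM holds no counts, so count-based tests were not run and depth is unknown. Samples were grouped by their labels. The 12956 genes whose mean reached 1 TPM were fitted as log2(TPM + 1) with limma 3.58.1 in R 4.3.3 (lmFit, eBayes with a trend of variance on mean expression, two-sided, Benjamini-Hochberg over all tested genes, threshold 0.05), and the fit was tested on simulated data. The pseudocount understates fold changes of low genes. Beside counts of genes, the share of all genes called is given.

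A host is a gene of GENCODE M21 (GRCm38) on the same strand that contains the whole RNA. Sequences and lengths are from the same release by gene identifier, with 118 of 122 rows matched, and copies were searched with blastn 2.17.0. Genes named were the 10 of highest mean, the 5 lowest p in each direction, those of the largest and smallest CV, the 3 on each side of 1 TPM, all Cajal body RNAs, all genes at 0 in any library, those of the host with most genes, snoRNAs of known role in rRNA cleavage, and hosts and protein genes of the pathway. *Gm17300*, *Gm28967*, *Gm23346* and *Gm23795* were named after their values were seen, as genes that overlap or copy a named one. The genes and lists were chosen with earlier results of these data known. Alternatives were a pseudocount of 0.1, no filter or at least 10 TPM, the replicate number as a block, 2 scalings, 2 variance settings and each library left out.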

Additional observations from a re-analysis of the deposited data

How the results depend on the processing

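Where the cause of a shift is not given by the setting itself, it was not tested. Depth is unknown, so what it limits could not be measured. Of the 17 genes, the number with an unadjusted p under 0.05 was 1 with a pseudocount of 0.1, at least 10 TPM and both scalings, 0 with every gene above 0 tested, without the variance trend and with robust moderation, and 0 to 2 with 1 library left out. The count at an adjusted p under 0.05 was 0 to 1 with 1 library left out (1 without WT library 2 or without *Ltf*-KO library 1). Those calls, of *Snora28* and *Snora23*, set WT values against *Ltf*-KO libraries that were all at 0. With 1 library left out, 0 to 3 of the 17 genes did not overlap. The number was 3 without WT library 2, beside 2245 of all 12956 genes. It was 1 without *Ltf*-KO library 1 or 3, beside 2183 and 2457 of all genes. Over all genes, 890 had an unadjusted p under 0.05 with 26553 genes tested and 281 with 8072 tested, against 490, and 0 to 6 had an adjusted p under 0.05 with 1 library left out. For the 17 genes the median difference was -0.32 in the main fit. Lowering the pseudocount to 0.1 gave 0.064, and leaving out 1 library gave -0.41 to 0.65, so its sign rests on the setting. Among the 6 genes of at least 10 TPM the median was -1.27. Of these 6, *Snora28*, *Snora44* and *Snora61* were listed at 0 in every *Ltf*-KO library and reached 10 TPM through WT libraries alone. The filter thus kept them for their WT values, and -1.27 is no measure of an effect of genotype. The 3 genes of the 6 seen in both genotypes had a median of 0.56.

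The median CV within *Ltf*-KO was 92.7% for genes of at least 10 TPM and 83.8% to 151% with 1 library left out, and within WT it was 118% to 141%. Without *Snord22* the mean summed TPM went from 263 to 167 in WT and from 151 to 113 in *Ltf*-KO. The WT sums then still held *Snora44* (97.4 TPM, WT library 2 only) and *Snora61* (74.56 TPM, WT library 3 only). Both passed the threshold through those libraries, so the means that remain are no measure of an effect of genotype. For the 30 protein genes that number was 1 after quantile normalization and without the variance trend and 0 to 2 with 1 library left out. For the 15 hosts it was 2 after median-of-ratios scaling, 1 after quantile scaling and 0 to 2 with 1 library left out. Over all 12956 genes it was 502, 508 and 456 to 611 under these settings.

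The difference of *Snord22* turned to 0.48 with a pseudocount of 0.1. With 1 library left out the differences ran from -2.83 to 0.97 for *Snord22*, -0.22 to 1.84 for *Snora73b*, -0.41 to 2.03 for *Snora73a*, -1.08 to 0.14 for *Snora5c*, -1.15 to 0.36 for *Snora64*, -0.69 to 0.82 for *Snord17* and -0.12 to 1.01 for *Snora43*, so 7 of 9 changed sign. *Scarna10* stayed higher (0.34 to 1.61) and *Snora23* lower (-1.60 to -0.71). Fits that left a genotype of *Snora64*, *Snora5c* or *Snora23* at 0 are not in these ranges, since no difference is given against a genotype at 0.

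Libraries with the same replicate number did not deviate together (correlations of -0.041, -0.058 and -0.088). With the number as a block 1 of the 17 genes, 1 of 15 hosts and 380 of all genes had an unadjusted p under 0.05, and 0 genes an adjusted p under 0.05.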

Other observations

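The values of a non-coding gene whose span crosses one of these loci are given without a call. *1600010M07Rik*, an antisense gene whose span runs across *Snora23* on the opposite strand with no exon over it, was at 14.13, 9.13 and 7.86 TPM in WT and at 1.45, 3.09 and 5.85 TPM in *Ltf*-KO. Every *Ltf*-KO library was below every WT library, with a difference of -1.44 on the log2(TPM + 1) scale (SE 0.39, limma adjusted p = 0.999). Its unadjusted p was under 0.05, as for 3.78% of all genes tested, and 8.46% of all genes had no overlap between genotypes. It was chosen after its values were seen, and it did not pass the adjusted threshold.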
